A study of Mus musculus with 20 samples.

Results

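In the mouse diaphragm 7 genes of the CC chemokine system were followed, the ligands Ccl2, Ccl7, Ccl8, Ccl11 and Ccl12 and the receptors Ccr1 and Ccr2. They were taken by name from the array, on which 7 of 55681 probes carry one of these 7 names, 1 probe a gene. All 7 passed the filter on low signal, which asked for 4 of 20 arrays well above background and left 36930 probes. The genes were selected on their levels in these same arrays, so the levels are given as a description, without a test of significance.

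Female C57Bl/6 mice received 1 injection into the pleural cavity when 8 weeks old, and total RNA of the diaphragm was measured 12 weeks later on 1-colour arrays, with 4 mice in each of 5 groups. The RNA came from a frozen piece of each diaphragm, the rest of which was fixed for histology. The control group received the vehicle alone, 0.5% bovine serum albumin in saline (100 µL), in which all fibers were also dispersed. The SFA and LFA groups received 25 µg of short or long amosite asbestos, and the NTS and NTL groups 5 µg of short or long carbon nanotubes. The doses of asbestos and of nanotubes differed, so LFA and NTL could be set side by side but not compared at 1 dose. The comparisons ask whether the long fibers, which are retained in the pleural space, differ from the vehicle and from short fibers of the same material. Short and long asbestos were prepared from the same batch. The short nanotubes were a commercial product and the long ones were made in a university laboratory. For nanotubes, length and source therefore cannot be told apart.

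Chemokines are small secreted proteins that direct the movement of leukocytes. CCL2, CCL7, CCL8 and CCL12 are monocyte chemoattractant proteins. CCL2, CCL7 and CCL12 act mainly through CCR2, the receptor with which inflammatory monocytes leave the bone marrow and enter tissue. CCR1 is carried by monocytes, macrophages and neutrophils and binds CCL3, CCL5 and CCL7 among others. CCL11 is eotaxin, which acts through CCR3 and attracts eosinophils, so it belongs to the same gene cluster but not to the monocyte chemoattractants. Both receptors are coupled to inhibitory G proteins.

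The 5 ligand genes form 1 cluster. In the NCBI37 coordinates of the array files the probes lie on the plus strand of chromosome 11, Ccl2 at chr11:81850650-81850709, Ccl7 at chr11:81860656-81860715, Ccl11 at chr11:81876072-81876131, Ccl12 at chr11:81916764-81916823 and Ccl8 at chr11:81930108-81930167. The Ccl8 probe is 79.5 kb from the Ccl2 probe, and Ccl11 stands between Ccl7 and Ccl12. The receptor probes lie on chromosome 9, Ccr1 on the minus strand at chr9:123877790-123877849 and Ccr2 on the plus strand at chr9:124022948-124023007.

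The promoter table from RefSeq (build GRCm38.p6, a different build from that of the probes) held 4 of the 7 genes, Ccl8, Ccl12, Ccr1 and Ccr2. The 250 bases before the start of Ccl12 (chr11:82101595-82101844, plus strand) and Ccl8 (chr11:82114935-82115184, plus strand) are shown because these neighbouring genes had the widest differences between the long-fiber groups and control. Capitals mark a TATA box with the letters TATAAAA:
Ccl12: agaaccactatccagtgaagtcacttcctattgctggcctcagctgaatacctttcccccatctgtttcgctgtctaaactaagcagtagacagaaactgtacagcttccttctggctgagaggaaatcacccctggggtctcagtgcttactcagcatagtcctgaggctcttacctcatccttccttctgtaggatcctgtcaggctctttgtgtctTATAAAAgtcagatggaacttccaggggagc
Ccl8: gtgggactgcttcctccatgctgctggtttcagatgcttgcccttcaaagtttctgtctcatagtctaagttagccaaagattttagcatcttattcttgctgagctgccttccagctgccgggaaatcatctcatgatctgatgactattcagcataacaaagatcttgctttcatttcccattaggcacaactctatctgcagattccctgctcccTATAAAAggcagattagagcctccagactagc

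The TATAAAA run begins 31 bases before the start in Ccl12 and 32 bases before it in Ccl8. It was searched for after the 2 sequences had been seen, and 1607 of 32544 promoter windows of the same length (4.94%) hold it on either strand. The windows of Ccl12 and Ccl8 shared 145 identical bases in an alignment of 266 columns (54.5%), whereas the other 5 pairs among the 4 genes shared 43.2% to 46.8%. On both strands, the letters TTCNNNGAA (a STAT-binding GAS element, in 7.04% of all windows) and TGANTCA (AP-1, 6.73%) were found in none of the 4 windows. The NF-kappaB motif (9.59%) was in that of Ccr1 alone, 74 bases before the start. A match in such a window is a description of its letters.

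Levels are given as the log2 of the processed signal minus the log2 of the 75th percentile of the same array, so that 0 is that percentile. A level holds for 1 probe and is not compared between genes. The arrays differed in brightness, with a 75th percentile of 292 to 991 intensity units and 53.0% to 68.1% of spots well above background. Control replicate 2 had the lowest value of both. Over all probes tested, the median log2 difference from control was -0.28 in LFA and -0.25 in NTL on this scale, and -0.08 and -0.09 after quantile normalization. Summed over 10 liver genes, the signal ranged from 5.45 to 5418 times the 75th percentile between arrays, with widely spread values in every group. Its median was 15.3 in control, 277 in SFA, 1005 in LFA, 2233 in NTS and 224 in NTL. All 10 genes had a higher mean in each fiber group than in control. The part of this signal in the results was not tested.

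Ccl8, which encodes monocyte chemoattractant protein CCL8, differed most. Its log2 level was 0.33, 2.56, 1.30 and 1.45 in control replicates 1 to 4, 2.31, 1.07, 2.57 and 1.01 in SFA, and 1.62, 0.56, 1.81 and 0.72 in NTS. It was 5.53, 6.69, 5.09 and 6.54 in LFA and 6.75, 7.08, 5.82 and 6.38 in NTL. Every LFA and NTL array was above all 12 others, and the lowest of the 8 (5.09, LFA replicate 3) was 2.52 above the highest of the 12 (2.57, SFA replicate 3). The mean was 1.41 ± 0.91 in control, 5.96 ± 0.78 in LFA and 6.51 ± 0.54 in NTL (SD, n = 4 each). The log2 difference from control was thus 4.55 (SE 0.50, 23.4-fold) in LFA and 5.10 (SE 0.50, 34.2-fold) in NTL. In bulk tissue, a change in the number of cells that make an RNA and a change in the RNA made by each cell cannot be told apart, here or for the genes below.

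Ccl2 encodes CCL2, the best-known CCR2 ligand. Its probe was printed 10 times on each array, and the SD of the log2 signal between these spots was 0.029 to 0.097. The log2 level was 0.16, 1.93, 0.70 and 0.58 in control, 0.89, 0.21, 0.87 and 0.66 in SFA and 0.79, 0.47, 0.60 and -0.00 in NTS. It was 2.30, 3.53, 2.36 and 3.98 in LFA and 2.76, 3.70, 3.15 and 3.48 in NTL. The long-fiber arrays were again all above the others, but by 0.37, the distance from LFA replicate 1 to control replicate 2. The log2 difference from control was 2.20 (SE 0.40, 4.59-fold) in LFA and 2.43 (SE 0.40, 5.38-fold) in NTL.

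Ccl7, which encodes a ligand of CCR1, CCR2 and CCR3, lies next to Ccl2. Its log2 level was -0.51, 0.84, -0.12 and -0.22 in control, 0.17, -1.55, 0.47 and -0.15 in SFA and -0.10, -0.35, -0.14 and -1.43 in NTS. It was 1.62, 3.32, 1.54 and 3.77 in LFA and 2.44, 3.22, 2.56 and 3.41 in NTL. All 8 long-fiber arrays were above the other 12, by 0.70 at the nearest, and LFA replicates 2 and 4 were well above LFA replicates 1 and 3. The log2 difference from control was 2.56 (SE 0.53, 5.91-fold) in LFA and 2.91 (SE 0.53, 7.51-fold) in NTL.

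Ccl12 encodes a mouse CCR2 ligand, and its groups were less cleanly apart. Its log2 level was -1.66, 0.27, -1.56 and -1.80 in control, -0.63, -1.59, -0.27 and -1.24 in SFA and -0.78, -1.18, -0.35 and -2.14 in NTS. It was 0.15, 2.75, 0.84 and 2.42 in LFA and 1.71, 2.84, 1.28 and 2.80 in NTL. LFA replicate 1 was 0.12 below control replicate 2, so LFA and control overlapped, while NTL lay above all other groups but LFA. The log2 difference from control was 2.72 (SE 0.60, 6.61-fold) in LFA and 3.34 (SE 0.60, 10.1-fold) in NTL, and the LFA difference was 3.21 without control replicate 2.

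Ccl11, the eotaxin gene in the middle of the cluster, had no such difference. Its log2 level was 1.62, 2.86, 1.20 and 1.20 in control, 2.11, 0.83, 1.81 and 0.91 in SFA, 0.79, 0.86, 1.79 and 1.66 in LFA, 0.95, 1.43, 0.85 and 1.31 in NTS and 0.94, 2.51, 1.35 and 0.89 in NTL. All 5 groups overlapped. The log2 difference from control was -0.44 in LFA and -0.30 in NTL (SE 0.43 each), and it was -0.063 in LFA without control replicate 2.

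**Figure D1:**
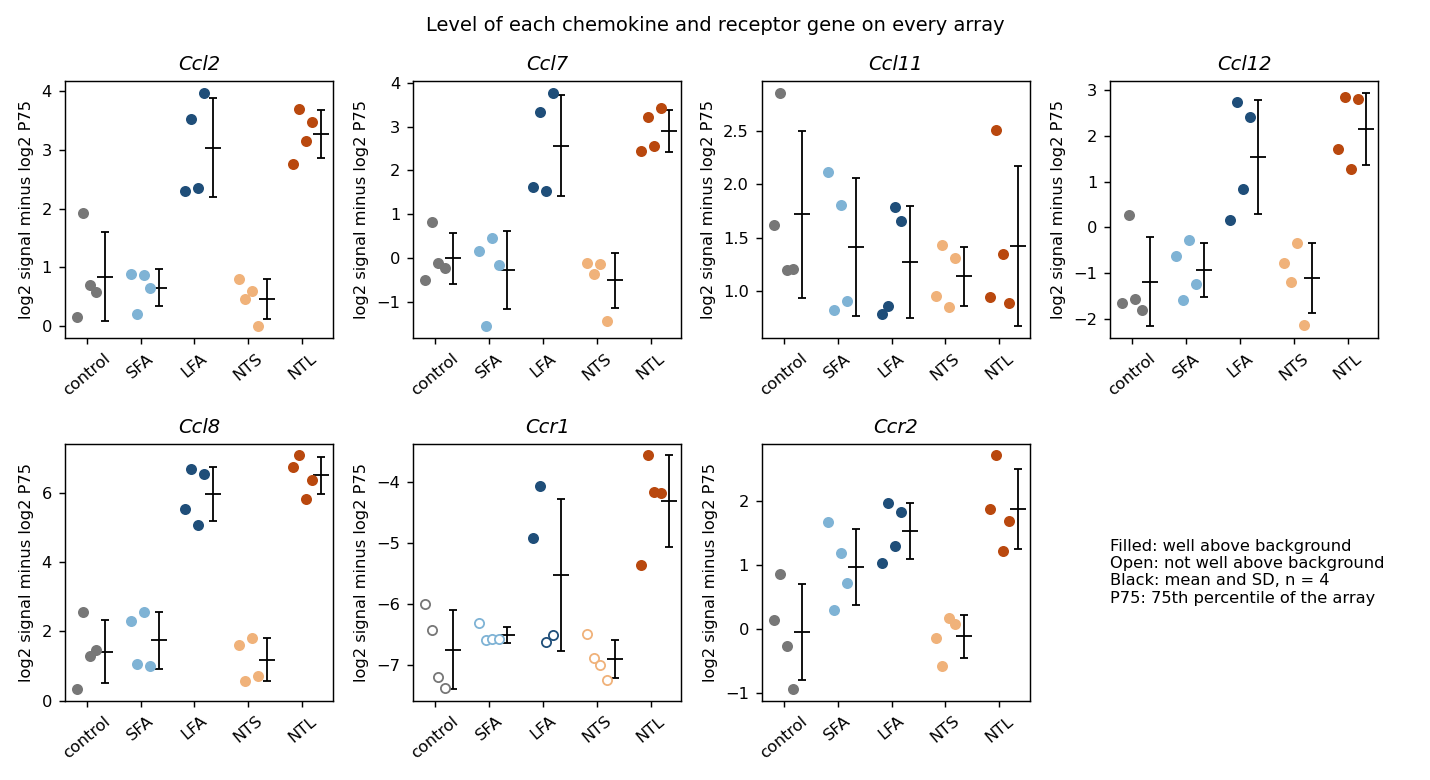
Level of each gene on every array, as log2 processed signal minus log2 of the array's 75th percentile, by group. Points are arrays, open where the probe was not well above background, and the black mark is the mean with its SD (n = 4); for Ccl8 the LFA and NTL arrays sit between 5.09 and 7.08, and all others at 2.57 or below.

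Ccr2 encodes the receptor for CCL2, CCL7 and CCL12. Its log2 level was 0.14, 0.85, -0.27 and -0.94 in control, 1.03, 1.97, 1.29 and 1.83 in LFA and 1.87, 2.71, 1.21 and 1.68 in NTL. Short asbestos arrays were at 1.66, 0.29, 1.18 and 0.72 and short nanotube arrays at -0.15, -0.59, 0.17 and 0.08. All LFA and NTL arrays were above all controls, but SFA overlapped with control, LFA and NTL. The log2 difference from control was 1.59 (SE 0.40) in LFA, 1.92 (SE 0.40, 3.80-fold) in NTL, 1.02 (SE 0.40) in SFA and -0.06 (SE 0.40) in NTS. Accordingly the difference between LFA and SFA was 0.57 (SE 0.40), and that between NTL and NTS 1.99 (SE 0.40).

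Ccr1 was the dim gene of the 7, with 2.97 to 55.6 intensity units over the 20 arrays. Its probe was well above background on 4 of 4 NTL arrays, on 2 of 4 LFA arrays and on no array of the other groups, so it passed the filter on low signal only through the groups in which it was high. The log2 level was -6.00, -6.42, -7.19 and -7.37 in control, -6.31, -6.59, -6.56 and -6.58 in SFA, -6.49, -6.88, -7.00 and -7.24 in NTS, -4.92, -4.06, -6.62 and -6.51 in LFA and -5.36, -3.56, -4.16 and -4.17 in NTL. The NTL arrays were above all control and short-fiber arrays, whereas 2 LFA arrays lay among these. Because the dim groups give only a bound, NTL was at least 1.59-fold above control and at least 1.54-fold above NTS, where the bound sets the mean of NTL against the lowest signal called well above background on each dim array. The measured log2 differences from control were 1.22 (LFA) and 2.43 (NTL) with an SE of 0.49. With background correction by normexp, which added an offset of 50 intensity units, they were 0.03 and 0.24. Such an offset is large beside the signal of this probe and by itself narrows its log2 differences.

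**Figure D2:**
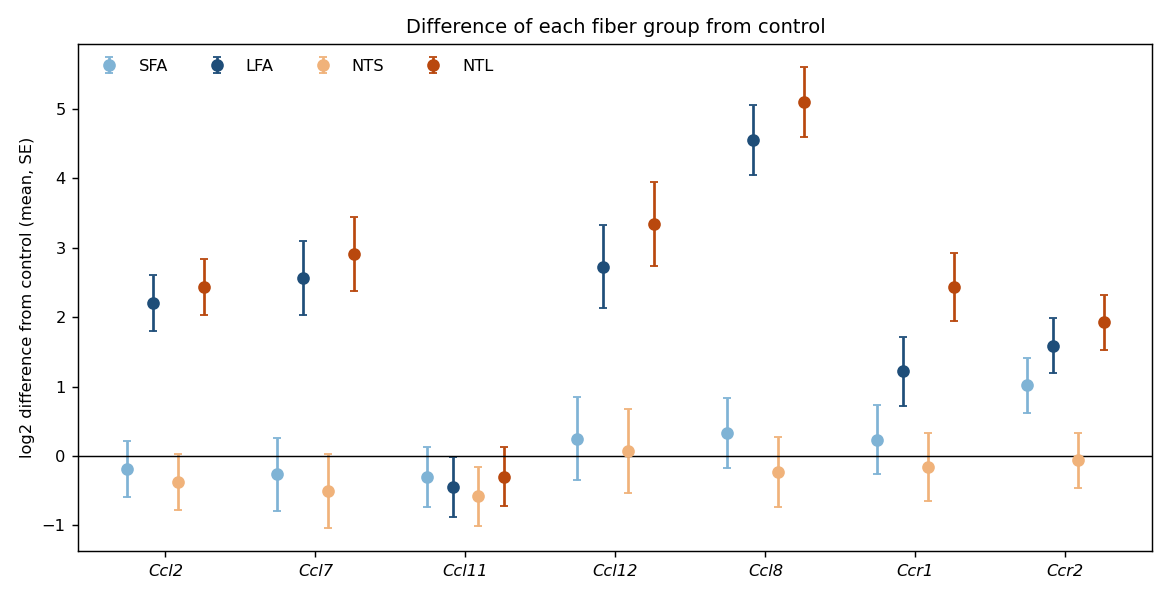
Log2 difference of each fiber group from control for the 7 genes, as points with SE bars from the fit over all 20 arrays. The LFA and NTL points of Ccl8 are at 4.55 and 5.10, those of Ccl11 at -0.44 and -0.30, and the SFA point of Ccr2 is at 1.02 and its NTS point at -0.06.

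A call required a log2 difference of at least 1 in size and an adjusted p under 0.05 over all probes tested. In LFA against control 5 of the 7 genes passed it, all higher (Ccl2, Ccl7, Ccl8, Ccl12 and Ccr2), beside 2.21% of all probes called higher and 1.75% called lower. In NTL against control 6 passed, all but Ccl11, beside 3.64% called higher and 3.16% called lower. In LFA against SFA 3 passed (Ccl2, Ccl7 and Ccl8), beside 1.03%, and in NTL against NTS the 6 passed again, beside 4.91%. With slide as a block only 3 of these 6 (Ccl2, Ccl7 and Ccl8) passed in NTL against NTS, and Ccr2 no longer passed in LFA against control. Ccr1 did not pass in NTL against control or NTS with normexp, whose offset of 50 units narrows the differences of dim probes. The filter on all 20 arrays removed Ccr1. No member passed in SFA or NTS against control or in LFA against NTL, nor was any other probe called higher (0%) or lower (0%) by limma. The choice of the genes used these contrasts, so the counts describe the choice and nothing more. The arrays did not overlap, with the long-fiber group higher, for 4 genes in LFA against control (4.57% of all probes), 6 in NTL against control (6.37%), 4 in LFA against SFA (3.15%) and 6 in NTL against NTS (7.66%). For 3 genes, Ccl2, Ccl7 and Ccl8, all 8 long-fiber arrays were above all 12 others, as for 1.42% of all probes.

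The call of Ccr2 in LFA against control was not made without control replicate 1, 3 or 4 or LFA replicate 2 or 4. That of Ccl12 was not made without control replicate 1 or 4 or LFA replicate 2 or 4, and that of Ccl7 without LFA replicate 2. The count of 5 was then 2 without LFA replicate 2 and 3 without control replicate 1, control replicate 4 or LFA replicate 4. The count of 6 in NTL against control stayed at 6 without any 1 array. This count includes Ccr1, which was well above background on no control array.

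With short fibers the ligand genes lay near the vehicle. In SFA the log2 differences from control were -0.19 (Ccl2), -0.26 (Ccl7), 0.33 (Ccl8), -0.30 (Ccl11) and 0.25 (Ccl12). In NTS they were -0.38, -0.51, -0.23, -0.58 and 0.07, in the same order of genes. The widest of these 10, -0.58 for Ccl11 in NTS, had an SE of 0.43. The arrays of SFA and NTS overlapped with control for all 7 genes, where 0.549% and 0.615% of all probes lay wholly above control.

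Between long and short fibers of the same material, Ccl8 had the widest difference, 4.22 for asbestos (18.7-fold) and 5.33 for nanotubes (40.2-fold), on the log2 scale with an SE of 0.50. Ccl2 differed by 2.38 and 2.81, Ccl7 by 2.83 and 3.41 and Ccl12 by 2.47 and 3.27. Ccl11 differed by -0.14 and 0.29 (SE 0.43). Between LFA and NTL, at different doses, every gene had the lower mean in LFA, with log2 differences from -1.21 (Ccr1) to -0.15 (Ccl11), and the arrays of LFA and NTL overlapped for all 7 genes.

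**Figure D3:**
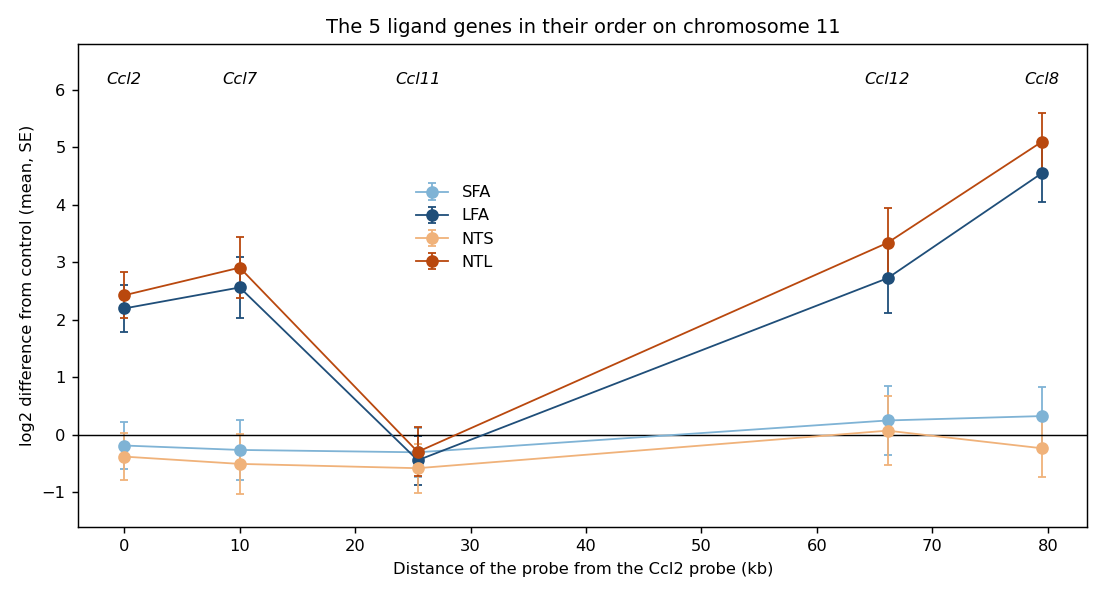
Log2 difference from control (mean, SE) of the 5 ligand genes against the distance of their probes from the Ccl2 probe, in kb, with 1 line for each fiber group. The LFA and NTL lines are at 2.20 to 2.91 for Ccl2 and Ccl7, below 0 at Ccl11 and at 2.72 to 5.10 for Ccl12 and Ccl8, while the SFA and NTS lines stay between -0.58 and 0.33.

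Within the groups the genes tended to share their high and low arrays. Control replicate 2 was the highest control array for 6 of the 7 genes, by 1.12 (Ccl7) to 1.94 (Ccl12) over the mean of the other controls. Its 75th percentile, which is subtracted from every gene, was the lowest of all arrays (292), and the share of all probes highest on it was not counted. Before scaling it was below control replicate 3 for Ccl7 (521 and 595 units) and below control replicate 1 for Ccr2 (528 and 599). For Ccl2, Ccl8, Ccl11 and Ccl12 it was still the highest control. NTL replicate 2 was the highest of its group for 6 genes, and SFA replicate 2 the lowest of its group for 6 genes. Over the 20 arrays, with each gene centred on its own mean, the closest pairs by root mean square (RMS) difference were Ccl2 and Ccl7 (0.39), Ccl7 and Ccl12 (0.42) and Ccl2 and Ccl12 (0.49), and the farthest was Ccl8 and Ccl11 (2.49).

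The arrays were on 3 slides, each with arrays of 3 to 5 groups and 1 to 3 arrays a group. Slide 1 held no SFA or NTL array, and slide 3 held 3 NTL arrays but no NTS array. NTL and NTS thus met on slide 2 alone, with 1 NTL and 2 NTS arrays. In that contrast, group and slide cannot be fully told apart. Against the control arrays of the same slide, Ccl8 was higher by 4.36, 4.08 and 5.39 in LFA on slides 1, 2 and 3, and by 5.30 and 5.13 in NTL on slides 2 and 3. Ccl2 was higher by 2.59, 1.25 and 2.83 in LFA and by 1.71 and 2.74 in NTL. Ccl7 was higher by 2.87, 1.46 and 3.44 in LFA and by 2.27 and 3.18 in NTL. These ligands kept their direction on each slide, with the smallest LFA differences on slide 2, which holds control replicates 1 and 2.

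Ccl12 was higher in LFA by 3.43, 0.85 and 4.30 on the 3 slides and in NTL by 2.40 and 3.86 on slides 2 and 3. Ccr2 was higher in LFA by 2.50, 0.54 and 2.25 and in NTL by 1.37 and 2.14. Ccr1 was higher in LFA by 0.81, 1.29 and 3.13 and in NTL by 0.85 and 3.23. These 3 genes varied more between slides than Ccl8, always with the long-fiber mean higher. For Ccr1 on slide 1, neither LFA replicates 3 and 4 nor control replicate 4 were well above background, so its direction there is between background signals. Ccl11 differed by 0.52, -1.45 and -0.33 in LFA and by -1.29 and 0.39 in NTL, so it had no 1 direction. With slide as a block the LFA and NTL differences from control were 4.55 and 5.02 (Ccl8), 2.21 and 2.26 (Ccl2), 2.58 and 2.60 (Ccl7), 2.76 and 3.07 (Ccl12), -0.46 and -0.20 (Ccl11), 1.48 and 1.99 (Ccr1) and 1.62 and 1.88 (Ccr2). In that fit the LFA difference of Ccr2 did not pass the call.

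**Figure D4:**
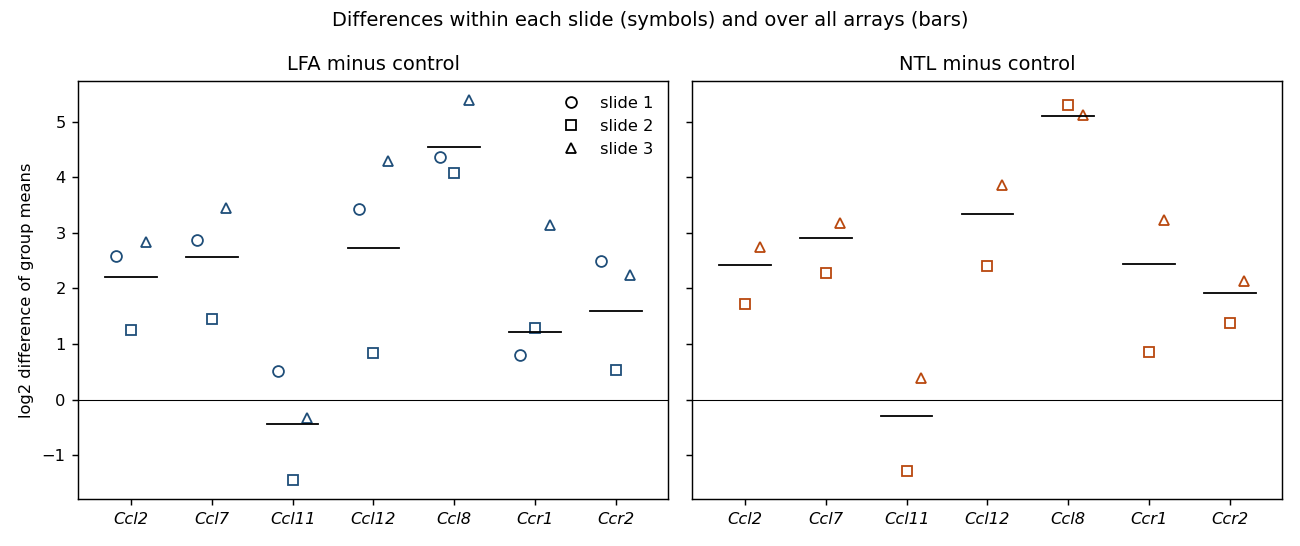
Log2 difference of the LFA (left) and NTL (right) mean from the control mean within each slide (symbols) and over all arrays (bars). Slide 1 holds no NTL array; for Ccl8 all 5 symbols lie between 4.08 and 5.39, and for Ccl11 they lie on both sides of 0.

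Other genes of the chemokine system, from fixed lists, were tested with limma, with Benjamini-Hochberg adjustment over all probes. Of 12 other CC ligands tested, 5 rose in LFA and 6 in NTL against control, and none fell. Ccl3 and Ccl4, which encode MIP-1α and MIP-1β, rose by 3.49 and 3.34 in LFA (limma adjusted p = 0.00102 and 0.00292) and by 3.91 and 3.21 in NTL (adjusted p = 0.000189 and 0.00172). The Ccl3 probe was well above background on 1 of 4 control arrays, so its differences rest on control signals mostly at background. Ccl6 and Ccl9, ligands of CCR1, rose by 2.89 and 2.55 in LFA (adjusted p = 0.000113 and 0.00128) and by 2.86 and 2.57 in NTL (adjusted p = 5.56e-05 and 0.000539). Ccl17, a ligand of CCR4, rose by 2.09 (adjusted p = 0.0195) and 2.51 (adjusted p = 0.00311). Ccl24, like Ccl11 a ligand of CCR3, rose in NTL by 1.22 (adjusted p = 0.0249), with 1.06 in LFA (adjusted p = 0.0615). Ccl5 had differences of 0.86 and 1.18 (adjusted p = 0.322 and 0.183). The median over the 12 was 0.96 in LFA and 1.20 in NTL, beside -0.28 and -0.25 over all probes.

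Of 12 other CC and atypical receptors, 1 fell and none rose in LFA, and 2 rose and 1 fell in NTL. Ackr4, a scavenging receptor for CCL19, CCL21 and CCL25, fell by 1.26 (limma adjusted p = 0.0307) and by 1.62 (adjusted p = 0.00412). Ccr4 and Ccr7, of T cells and dendritic cells, rose in NTL by 2.21 and 1.74 (adjusted p = 0.0273 and 0.0161), where the Ccr4 probe was well above background on 1 of 4 control arrays.

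Ccr3, the eotaxin receptor, had differences of 0.05 in LFA and 0.39 in NTL (SE 0.41, limma adjusted p = 0.947 and 0.617). The atypical receptors that bind the members' ligands without G protein signalling had differences of 0.97 and 0.68 (Ackr1, adjusted p = 0.0552 and 0.144) and of 0.19 and 0.38 (Ackr2, adjusted p = 0.763 and 0.554). None of these 3 passed the call in LFA or NTL against control.

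**Figure D5:**
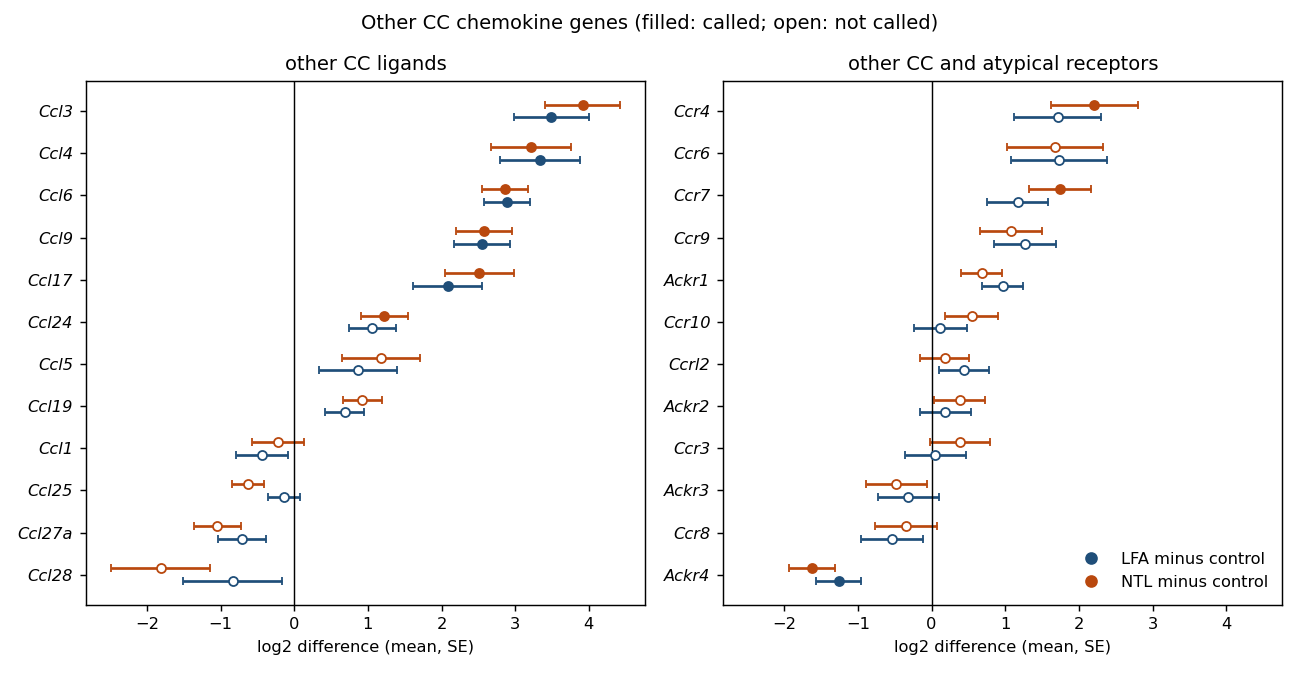
Log2 difference from control with SE for the other CC ligands (left) and for the other CC and atypical receptors (right) in LFA and NTL, filled where called and open where not. Ccl3 (3.49 and 3.91, well above background on 1 of 4 control arrays) is at the top of the left panel, and on the right Ackr4 (-1.26 and -1.62) is the filled pair below 0.

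Of 23 tested genes of other chemokine classes, 7 rose in LFA and 9 in NTL against control, with none that fell. Cxcl5, which encodes a ligand of the neutrophil receptor CXCR2, rose by 5.68 in LFA and 5.47 in NTL (limma adjusted p = 0.000377 and 0.000232), with 3 of 4 control arrays well above background. The CXCR2 ligand genes Cxcl3, Cxcl2 and Cxcl1 rose as well. Cxcl3 and Cxcl2 were well above background on no control, SFA or NTS array. Like Ccr1, they passed the filter on low signal only through the groups in which they were high. Against the bound set by background, Cxcl3 was at least 3.62-fold (LFA) and 2.71-fold (NTL) higher than control, and Cxcl2 at least 1.55-fold and 2.10-fold. Both are among the 7 and 9 genes counted, but their calls rest on control signals at background, so no p is given for them. Cxcl1 rose by 2.17 and 2.12 (adjusted p = 0.0243 and 0.0163). Cx3cr1, the fractalkine receptor of patrolling monocytes, rose by 1.96 and 2.39 (adjusted p = 0.0176 and 0.0025), and Cxcl13 by 1.94 and 2.05 (adjusted p = 0.0355 and 0.017).

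Of 20 genes of signalling from chemokine receptors, 3 rose in LFA and 5 in NTL, and none fell. Rgs1, a brake on G protein signalling, rose by 3.38 and 4.08 (limma adjusted p = 0.0172 and 0.0026). Pik3r5 and Pik3cg, subunits of the G protein-driven phosphoinositide 3-kinase, rose by 1.80 and 1.78 in LFA (adjusted p = 0.00241 and 0.029) and by 1.99 and 2.24 in NTL (adjusted p = 0.000451 and 0.00416). The Pik3cg probe was well above background on 3 of 4 control arrays.

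Of 24 tested genes that encode or sense inducers of monocyte chemokines, 6 rose in LFA and 7 in NTL, and none fell. Il6 rose by 3.62 and 3.98 (limma adjusted p = 0.000575 and 0.000119), Il1b by 3.73 and 3.37 (adjusted p = 0.00832 and 0.00792) and Il1r1, the interleukin-1 receptor, by 2.40 and 2.62 (adjusted p = 0.00441 and 0.00103). The Il6 probe was well above background on 1 of 4 control arrays. Tlr2, a sensor of microbial lipoproteins, rose by 1.56 and 1.51 (adjusted p = 0.0267 and 0.0189). None of the 47 tested chemokine and receptor genes outside the members was called in SFA or NTS against control by limma. At an unadjusted p under 0.05, the other CC ligands had 0 in SFA and 1 in NTS, the other receptors 3 and 1, and the other classes 3 and 1.

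Whether the long-minus-short difference was unlike in asbestos and in nanotubes was tested for these 47 genes with an interaction term. In this term, length cannot be told apart from the dose of each material or from the source of the nanotubes. None of the 47 genes passed after adjustment over all probes. At an unadjusted p under 0.05 there were 2, Ccl25 with an interaction of 1.04 (SE 0.31, unadjusted p = 0.00352 by limma) and Cxcl13 with -1.99 (SE 0.70, unadjusted p = 0.011).

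Markers of other cells moved beside the 7 genes. The sum of 12 macrophage genes was 34.7 to 47.3 times the 75th percentile in control, 35.9 to 58.8 in SFA, 36.6 to 52.4 in NTS, 163 to 245 in LFA and 187 to 301 in NTL. Of these genes, 7 rose in LFA and 9 in NTL, none fell, and the brightest were C1qc (1.60 and 1.88, limma adjusted p = 0.00262 and 0.000298), C1qa (1.88 and 2.26, adjusted p = 0.0107 and 0.00158) and the scavenger receptor gene Marco (3.91 and 3.56, adjusted p = 0.000173 and 0.000198). Of 11 monocyte genes 6 rose in LFA, and 7 rose and 1 (Nr4a1) fell in NTL. Nr4a1 differed from control by -1.84 in NTL (adjusted p = 0.00996), and by -2.05 in SFA, -1.96 in NTS and -1.13 in LFA, which did not pass (adjusted p = 0.625, 0.9999 and 0.108), although all SFA and NTS arrays were below all controls. Of the brightest of these, Csf1r, the CSF1 receptor gene, rose by 1.33 and 1.68 (adjusted p = 0.00469 and 0.000324), while Ly6c1 had differences of -0.02 and 0.22 and Itgam of -0.80 and -0.60. The sum of the monocyte genes was 208 to 372 in control, 211 to 266 in SFA, 149 to 283 in NTS, 242 to 463 in LFA and 334 to 489 in NTL, so it overlapped. This sum is weighted to bright genes such as Ly6c1, Itgam and Nr4a1 (mean control levels 6.78, 5.52 and 5.50), none of which was called higher. The median log2 difference from control over the 11 genes was 1.33 in LFA and 1.64 in NTL. Ly6c2, also on the monocyte list, had no probe on the array. No defining marker of either list was below background on every array. The part of these cells in the levels of the 7 genes was not tested.

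Of 6 eosinophil genes tested, the cells that CCL11 attracts, 1 rose in LFA (Ear1) and 2 in NTL (Ear1 and Ear2). The summed level was 2.45 to 6.54 in control, 3.90 to 10.8 in SFA, 2.21 to 4.85 in NTS, 8.55 to 10.3 in LFA and 6.37 to 17.6 in NTL, so the highest SFA array was above every LFA array, and Epx, the eosinophil peroxidase gene, was well above background on 3 of 20 arrays. No gene of the neutrophil, B cell, mast cell, endothelial, mesothelial or liver lists was called by limma in LFA or NTL against control. At an unadjusted p under 0.05 these lists had 0, 0, 1, 0, 1 and 0 genes in LFA and 0 each in NTL. Of the T cell genes Cd5 rose in NTL, and of 8 fibroblast genes 2 rose in LFA (Col3a1 and Fn1) and 5 in NTL. Of 12 skeletal muscle genes, the main tissue of the diaphragm, all were well above background on every array, and 3 fell in LFA (Acta1, Myh7 and Actn2) and 6 in NTL. Their sum was 3957 to 6447 in control, 3364 to 4051 in SFA, 2674 to 5643 in NTS, 1992 to 2822 in LFA and 1873 to 2348 in NTL, with NTS overlapping both control and LFA.

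The genes nearest to each member in pattern over the 20 arrays, by the RMS difference of centred log2 levels, were the following. For Ccl2 these were C5ar1 (0.28), the receptor of complement C5a, Klrg1 (0.34) and Tlr13 (0.35). For Ccl7 they were Ms4a6d (0.45), C5ar1 (0.49) and Adora2b (0.53). For Ccl8 they were Timp1 (0.63), an inhibitor of matrix metalloproteinases, Olr1 (0.69) and Trem2 (0.74), a receptor of macrophages, and for Ccl12 AA467197 (0.51), Fcgr1 (0.56) and Tnfsf8 (0.58). Ccr2 was closest to Tcstv3 (0.28), Evi2a (0.30) and March1 (0.31). Ccl11 was closest to Ier3ip1 (0.21), Arhgef6 (0.21) and Ube2g2 (0.22), and Ccr1 to Prss16 (0.60), Lin52 (0.64) and Clec4a1 (0.64). The SD of the members themselves was 2.45 for Ccl8 and 0.57 for Ccl11, so an RMS value is read against a different spread for each.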

How the data were processed

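Per the labels, total RNA was extracted with TRIzol, labelled with Cy3 and hybridised to Agilent arrays, which the authors read with Feature Extraction 10.7.3.1. The deposited scanner files give processed intensity per spot, and a deposited table of log2 group means by the authors served as an alternative without replicates. Here the processed intensity was averaged over spots of a probe, without outlier and control spots. Its log2 was then taken, and the log2 of each array's 75th percentile was subtracted. Probes well above background on at least 4 of 20 arrays were fitted with limma 3.58.1 (R 4.3.3) over all 5 groups, and p-values were adjusted over 36930 probes (Benjamini-Hochberg). A gene is given by its brightest probe, and 27235 probe accessions matched the gene table. The number of arrays limits the precision. The 7 genes and the gene lists were chosen with earlier results of these data known. Named beside them were Ccr3, Ackr1, Ackr2 and Ccl3 to Ccl5, up to 4 genes of each other list of the pathway called in both LFA and NTL against control with the largest smaller change, up to 3 bright markers of each list, and the 3 genes nearest each member; other named genes were chosen after their values were seen. A gene of the fixed lists is not reported here and is left out of their counts. Samples were grouped by the labels, each array being 1 mouse; nothing else in the labels ties arrays together. The fit was tested on simulated data. Alternatives were another normalization, background correction (normexp, offset 50), filter, slide or replicate block, subset of groups, test, or set of arrays. Motifs were searched with Python 3.11.15, and windows aligned with Biopython 1.88 (match 1, mismatch -1, gap opening -3, extension -1).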

Additional observations from a re-analysis of the deposited data

Results flagged for a closer look

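In 3 of 65 sets of 4 arrays (4.62%) 1 array stood apart from the other 3 of its group by Dixon's criterion, where chance gives about 1 in 20. For Ccl12, control replicate 2 was at 0.27, with the other control arrays between -1.80 and -1.56. For Ccr1, SFA replicate 1 was at -6.31 and the others between -6.59 and -6.56, none of them well above background. For Ackr1, NTL replicate 4 was at -0.36 and the others between 0.08 and 0.14.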

How the results depend on the processing

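Of 1414 member differences recomputed under alternatives, 1379 stayed within 1 SD of the values given, 35 moved by more and 0 of those called changed sign. Counts below are of the 7 members and of the 47 other chemokine and receptor genes tested, in both directions. Of the 47, 13 were called in LFA against control, 18 in NTL against control, 6 in LFA against SFA and 20 in NTL against NTS. Lower among these were 1 receptor gene (Ackr4) in LFA and in NTL against control and 2 CC ligand genes in NTL against NTS. All other calls were higher. With slide as a block, NTL against NTS had 3 members and 8 others, and LFA against control had 4 members. With only the groups compared in the fit, LFA against control had 1 member and 8 others, and LFA against SFA 1 and 3. With a filter on all 20 arrays, LFA against SFA had 3 others. The methods' test (unequal variances, Benjamini-Hochberg adjustment) gave 1 p a probe over all 5 groups, not 1 for each contrast. Counted by that p and a log2 difference of at least 1 in size, LFA against control had 3 members and 7 others. Likewise counted were 3 and 9 in NTL against control, 3 and 10 in NTL against NTS, and 1 other in SFA against control. Over the 5 groups that test passed 1398 probes after adjustment and 7991 before. The causes were not tested. When 1 array at a time was left out, there were 2 to 5 members and 6 to 15 others in LFA against control, 6 and 14 to 20 in NTL against control, 2 to 4 and 4 to 7 in LFA against SFA, and 6 and 14 to 21 in NTL against NTS. For the others, the count of 13 was 7 without control replicate 1 and 6 without LFA replicate 2 or 4. Replicate numbers did not pair the arrays (same-numbered arrays correlated at a median of -0.09 over 40 pairs, range -0.68 to 0.69), and with a replicate block the counts were 5 members and 13 others in LFA against control and 6 and 18 in NTL against control. Signal over background limits Ccr1, which was well above background on no control, SFA or NTS array.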
